A study of Mus musculus with 75 samples.

Results

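The mitochondrial ribosomal protein genes (Mrp genes) of mouse skin fibroblasts were examined at 4 passages of replicative senescence and after manipulation of E2f4, Tead1 and Atf3. The members were chosen by name, as the genes of the count files whose symbol is Mrpl or Mrps followed by a number and at most 1 letter. This gave 78 of 24984 genes, with 49 Mrpl and 29 Mrps symbols. By their current protein names 51 members belong to the large and 26 to the small subunit, since the products of Mrps18a and Mrps30 sit in the large one. The product of Mrps36 (KGD4) is no longer counted to the ribosome but to the 2-oxoglutarate dehydrogenase complex. All 78 members passed the filter on low counts in each of the 5 RNA-seq experiments.

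Mitochondria carry their own ribosomes, which translate the few proteins encoded by mitochondrial DNA, all of them subunits of the oxidative phosphorylation complexes. The ribosomal RNAs come from mitochondrial DNA, whereas every protein of the 2 subunits is encoded in the nucleus, made in the cytosol and imported. Some of these proteins descend from bacterial ribosomal proteins and others are found only in mitochondria. The members were split by their current protein names, with 45 named after a bacterial counterpart and 32 named as proteins found only in mitochondria. The names do not fully follow descent, since the 32 include Mrps18a and Mrps18b, paralogues of bacterial S18. The transcription factors NRF1, GABP and YY1 are known regulators of nuclear genes for mitochondrial proteins.

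The passage series consisted of skin fibroblasts of 2-month-old female C57BL/6 mice at passages P1, P3, P5 and P7, untreated, with 4 RNA-seq libraries each and with 4, 3, 3 and 3 ATAC-seq samples. E2f4, a cell cycle transcription factor, was overexpressed in pre-senescent cells from a doxycycline-inducible lentivirus (2 libraries) and compared with vector control cells that carried EGFP (2 libraries). E2f4 was also knocked down in proliferating cells with the hairpin sh1 (3 libraries) against a non-targeting hairpin (3 libraries). Tead1, the DNA-binding partner of YAP and TAZ, was knocked down with sh3 and sh4, whose target sites overlap, and Atf3, a stress-induced factor related to AP-1, was knocked down with sh5 and sh6 in pre-senescent cells. These 4 hairpin groups and the non-targeting group of each experiment had 3 libraries each. Cells with a hairpin had been selected with puromycin, the strain of all cells is labelled C57BL/6, and cells of 2-month-old and of newborn mice were used for the manipulations, without a statement of which library came from which. The hairpin groups of an experiment share their non-targeting libraries, and the labels do not say whether replicates are separate animals or cultures, so p-values measure the spread between these libraries only.

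The total count per library was 13430229 to 15725823 in the passage series and 9147324 to 27552949 in the interventions, and the lowest count of any member in any library was 34. E2f4 was at 1118 and 1180 CPM (counts scaled to library size after TMM normalization) with overexpression and at 35.5 and 47.5 CPM in the control, and at 20.4 to 21.8 CPM with sh1 against 59.6 to 60.8 CPM. Tead1 was at 268 to 285 CPM with sh3, 313 to 320 CPM with sh4 and 508 to 572 CPM in the non-targeting libraries. Atf3 was low throughout, at 0.451 to 2.10 CPM with sh5 (log2 fold change -1.14, adjusted p = 0.0447), 1.51 to 2.09 CPM with sh6 (log2 fold change -0.79, adjusted p = 0.114) and 2.77 to 3.31 CPM in the controls. The sh6 libraries thus lay below the controls without overlap but did not pass the test at these low counts. The paper checked the Atf3 knockdown by RT-qPCR and immunoblot, which are not part of these data. The third Atf3 sh5 library stood apart from its replicates, with a chi-square of 59.4 and 63.7 for each degree of freedom against them and 3.29 between those, and with 16.8% of counts in rows without a gene against 12.5 and 13.1%. All 10 fibroblast markers were detected in every group. The summed markers of macrophages (318 to 490 CPM), skeletal muscle (110 to 161 CPM), endothelium (140 to 153 CPM) and adipocytes (44.6 to 58.4 CPM) were higher in P1 than in any other group. Keratinocyte markers were at 61.8 to 390 CPM in P1, 67.2 to 69.7 CPM with E2f4 overexpression and 46.1 to 47.5 CPM in its control. In every other group they were at most at 13.7 CPM. Schwann cell and melanocyte markers were lower in P1 (34.2 to 42.9 CPM) than in P3 (57.9 to 78.1 CPM), and were at 40.6 to 121 CPM in P7.

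**Figure D1:**
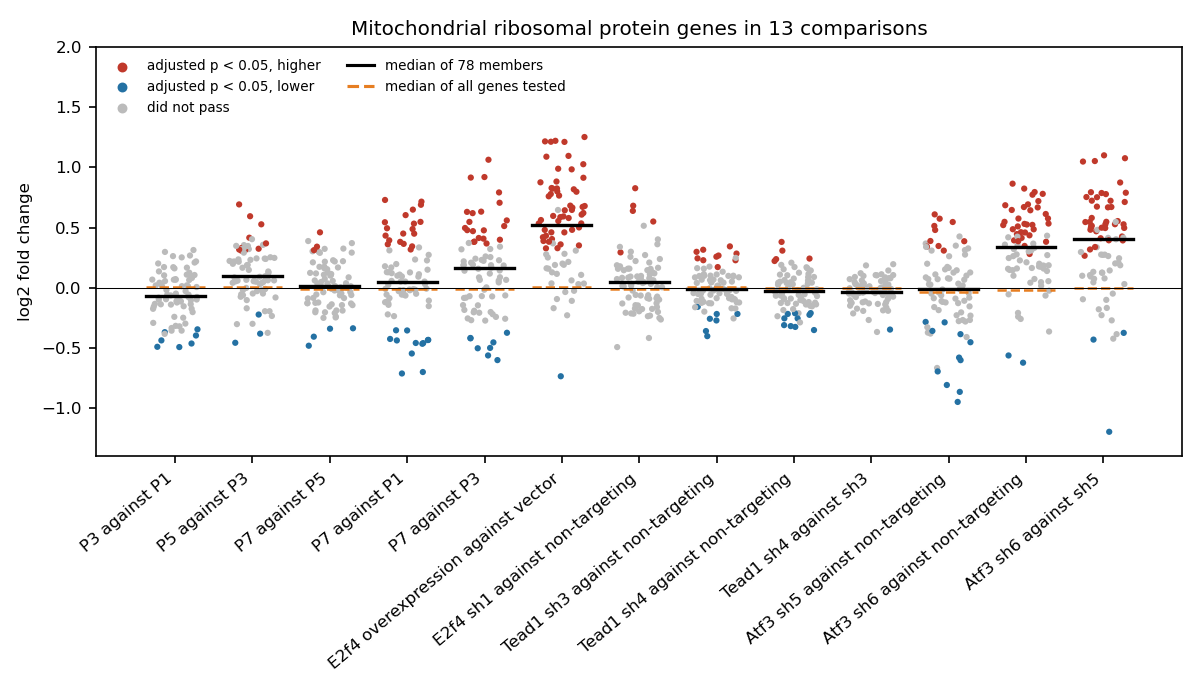
Log2 fold change of each of the 78 Mrp genes (points) in 13 comparisons, red where higher, blue where lower and grey where the test was not passed, with the median of the members as a black bar and that of all genes tested as a dashed orange bar. The members lie around the median of all genes in most comparisons and mostly above it with E2f4 overexpression (median 0.52), with Atf3 sh6 (median 0.34) and in Atf3 sh6 against sh5 (median 0.41).

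The Mrp genes were moderately to highly expressed. In TPM (counts per exonic length, scaled to the library), averaged over the 16 passage libraries, the median member was at 53.4 TPM, with quartiles of 36.9 and 75.6 TPM, and the median of all genes tested was 19.9 TPM. The highest levels were those of Mrpl33 (301.5 ± 39.8 TPM, SD, n = 16), which encodes the small large-subunit protein bL33m, Mrpl52 (287 ± 52.3 TPM) and Mrps6 (215 ± 26.0 TPM). They were followed by Mrpl54 (183 ± 24.1 TPM) and Mrpl30 (156 ± 11.1 TPM). Mrpl33 and Mrpl52 do not differ beyond their spread. The lowest levels were those of Mrpl1 (9.98 ± 2.38 TPM), which encodes the protein of the L1 stalk, Mrps25 (11.3 ± 1.51 TPM), Mrpl48 (11.7 ± 1.31 TPM), Mrpl19 (12.8 ± 2.22 TPM) and Mrpl43 (14.1 ± 1.61 TPM), whose neighbours in this order lie within their spread. The order depends on annotated exonic length, which was 466 and 412 bases for Mrpl33 and Mrpl52. It was 4188, 6076, 4965 and 5016 bases for Mrpl1, Mrps25, Mrpl48 and Mrpl19, which were at 15.3, 25.6, 21.5 and 23.7 CPM. Mrpl43 has 1213 bases and was at 6.35 CPM. Mrpl17, with 6712 bases, had the highest CPM of the members (71.7) but only 28.8 TPM. The median level was 60.6 TPM for small and 52.7 TPM for large subunit genes, and 65.5 TPM for proteins with a bacterial counterpart and 43.1 TPM for proteins found only in mitochondria. Counting ignored strand, and 12 members share exonic bases with another gene, among them Mrps25 (with Nr2c2), Mrpl48 (with Rab6a), Mrpl19 (with Gcfc2), Mrpl43 (with Twnk) and Mrps6 (with Slc5a3), so the counts of these members are uncertain.

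The summed level of the 78 genes was nearly level over the passages. It was 2158 ± 76.4 CPM (SD, n = 4) at P1, 2058 ± 44.3 CPM at P3, 2221 ± 141 CPM at P5 and 2284 ± 297 CPM at P7. The P7 libraries were at 2680, 2340, 2097 and 2018 CPM, so their range spanned that of the P1 libraries (2078 to 2225 CPM), and the groups overlap. In the interventions the summed level was 2240 and 2335 CPM with E2f4 overexpression against 1618 and 1673 CPM in the vector control, with no overlap. It was also without overlap in Atf3 sh6, at 2256 to 2484 CPM against 1804 to 1921 CPM in the non-targeting and 1800 to 1981 CPM in the sh5 libraries. With E2f4 sh1 it was 2039 ± 160 CPM against 1971 ± 50.7 CPM, and with Tead1 sh3 and sh4 it was 2096 ± 71.1 and 2062 ± 52.9 CPM against 2107 ± 22.9 CPM (n = 3 each).

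**Figure D2:**
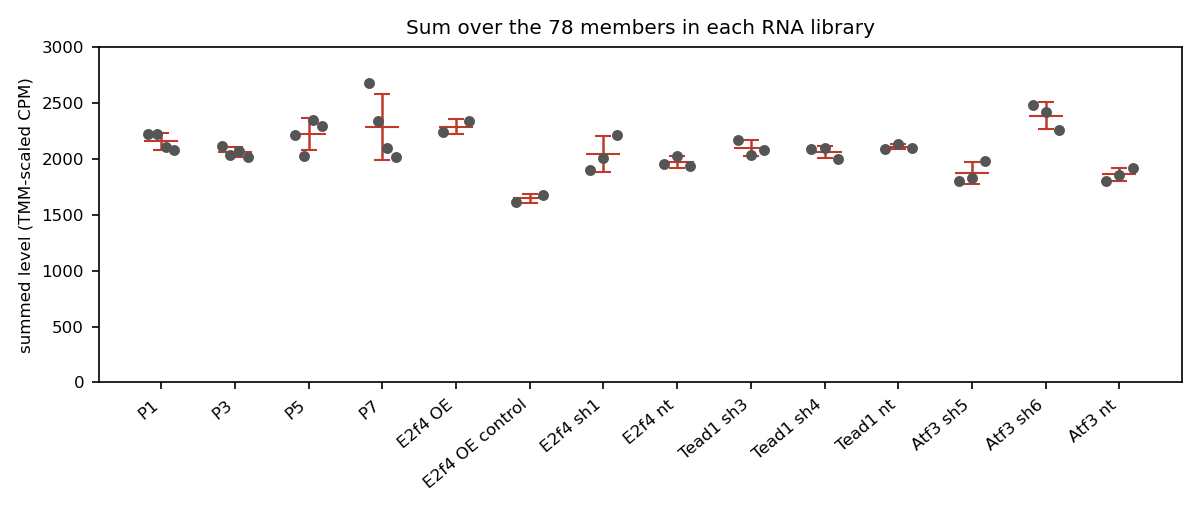
Summed CPM of the 78 Mrp genes in each of the 44 RNA-seq libraries (points), by group, with the mean of each group as a red dash and its SD as an error bar. The 2 E2f4 overexpression libraries (2240 and 2335 CPM) lie above both of their controls, the 3 Atf3 sh6 libraries (2256 to 2484 CPM) lie above all sh5 and non-targeting libraries, and the passages overlap.

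The first question was how the Mrp genes behave as fibroblasts are passaged into senescence. From P1 to P7, 19 members rose and 12 fell, and 47 did not pass the test (edgeR quasi-likelihood, adjusted p under 0.05). Of all genes tested 30.5% rose and 31.9% fell between these passages (62.5% in all). A fold change over 2 was passed by 21.4% of all genes and by 0 members, in edgeR as in DESeq2. The median log2 fold change was 0.05 for the members (0.02 after correction for GC) and -0.01 for all genes. Without P7 replicate 1 the median of the members was -0.00, and 15 rose and 13 fell (3969 and 4304 of all 13609 genes). In the large subunit 11 genes rose and 8 fell, and in the small subunit 8 rose and 4 fell.

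Among the members that rose was Mrpl14, which encodes uL14m, the binding site of the assembly factor MALSU1. It was at 13.4, 13.9, 12.99 and 10.9 CPM in the P1 libraries and at 28.5, 21.7, 18.4 and 16.2 CPM in the P7 libraries, a log2 fold change of 0.73 ± 0.24 (SE, adjusted p = 0.0126). All P7 libraries lay above all P1 libraries. Mrps12 encodes uS12m, a protein of the decoding centre. It was at 17.8, 18.1, 15.1 and 16.3 CPM at P1 and 31.8, 31.3, 25.2 and 22.1 CPM at P7, a log2 fold change of 0.72 ± 0.13 (SE, adjusted p = 0.000127), again without overlap. Mrpl10 encodes uL10m, the base of the stalk that recruits translation factors. Its level was 35.8, 31.8, 29.3 and 31.1 CPM at P1 and 53.5, 61.3, 46.3 and 45.4 CPM at P7 (log2 fold change 0.69 ± 0.11 SE, adjusted p = 2.05e-05), and the groups do not overlap. Mrpl53, a large subunit protein found only in mitochondria, was at 14.8, 13.1, 14.9 and 12.99 CPM and 23.4, 22.99, 20.9 and 20.2 CPM (log2 fold change 0.65 ± 0.11 SE, adjusted p = 4.88e-05), although it shares exonic bases with Ccdc142. Mrpl57, which encodes the mitochondria-only protein mL63, rose by 0.60 ± 0.18 (SE, adjusted p = 0.00614), from 25.7 ± 2.71 to 39.04 ± 5.74 CPM (SD, n = 4). The next members by fold change, here and later with the log2 fold change alone in parentheses, were Mrps14 (0.55), Mrpl33 (0.54), Mrps21 (0.53), Mrps25 (0.49) and Mrps10 (0.49, with overlapping groups).

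The members that fell were led by Mrpl47, which encodes uL29m near the exit of the peptide tunnel. It was at 14.3, 14.3, 13.9 and 15.7 CPM at P1 and 8.47, 7.87, 9.15 and 10.02 CPM at P7, a log2 fold change of -0.71 ± 0.12 (SE, adjusted p = 3.57e-05), and every P7 library lay below every P1 library. Mrps5 encodes uS5m, which lines the entry of the mRNA channel. It was at 28.97, 26.5, 25.4 and 26.4 CPM at P1 and 19.9, 14.8, 16.8 and 14.5 CPM at P7 (log2 fold change -0.70 ± 0.15 SE, adjusted p = 0.000394), without overlap. Mrpl18 encodes uL18m, whose bacterial counterpart binds 5S rRNA. Its level was 48.2, 47.98, 44.3 and 41.8 CPM at P1 and 36.4, 29.9, 31.4 and 27.2 CPM at P7 (log2 fold change -0.55 ± 0.12 SE, adjusted p = 0.000753), and these groups also stood apart. Mrpl3 encodes uL3m, a core protein of the large subunit. It was at 47.7, 47.8, 46.96 and 44.8 CPM at P1 and 37.6, 31.9, 35.7 and 31.2 CPM at P7 (log2 fold change -0.46 ± 0.08 SE, adjusted p = 5.58e-05). Mrpl12 encodes bL12m, the stalk protein that contacts elongation factors. It was at 67.5, 65.04, 60.4 and 61.8 CPM at P1 and 60.2, 48.1, 41.5 and 35.5 CPM at P7 (log2 fold change -0.46 ± 0.14 SE, adjusted p = 0.00947), and its highest P7 library stayed just below the lowest P1 library. The stalk partners Mrpl10 and Mrpl12 thus changed in opposite directions. The remaining named members were Mrpl40 (-0.46), Mrps27 (-0.44), Mrps22 (-0.43), Mrpl1 (-0.43) and Mrpl46 (-0.42).

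**Figure D3:**
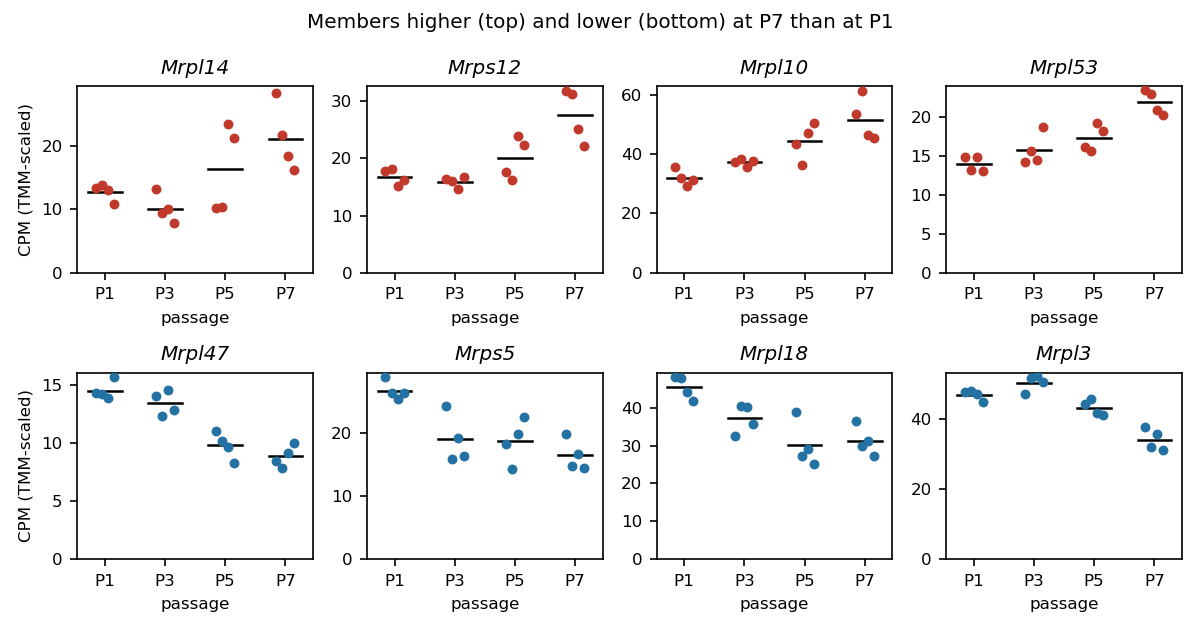
CPM in each of the 16 passage libraries (points) for 8 Mrp genes that passed the test between P1 and P7, with the mean of each passage as a line. Mrpl14, Mrps12, Mrpl10 and Mrpl53 (top) lie higher at P7 than at P1, Mrpl47, Mrps5, Mrpl18 and Mrpl3 (bottom) lie lower, and 2 of the 4 P5 libraries stand above the other two for Mrpl14.

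The course between P1 and P7 was not even. The mean of 35 members (44.9%) was lowest at P3, compared with 19.9% of all genes tested. Only 9 members (11.5%, all genes 16.1%) rose and 5 (6.41%, all genes 16.8%) fell at every step. From P1 to P3, 0 members rose and 7 fell, where 16% and 17.5% of all genes did (33.4% in all), and 3 members were higher and 12 lower at an unadjusted p under 0.05. Unadjusted calls were not counted over all genes, here or later. DESeq2 also called 0 higher, and 10 lower (2178 and 2565 of 13442 genes). With edgeR 5 were higher and 15 lower when only these passages were fitted (2764 and 2986 of 13072 genes). After correction for GC 1 was higher and 9 were lower (2075 and 2596 of 13442 genes). The count was 3 without P3 replicate 2 or 4. Those that fell included Mrps5 (-0.49), Mrpl41 (-0.49), Mrpl51 (-0.46, with overlapping groups), Mrpl28 (-0.44) and Mrpl12 (-0.40). From P3 to P5, 10 rose and 3 fell (13.4% and 15.3% of all genes, 28.7% in all), led by Mrpl14 (0.69), Mrpl57 (0.59) and Mrps21 (0.53) above and Mrpl47 (-0.46) and Mrpl50 (-0.38) below. The P5 libraries differed among themselves, since Mrpl14 was at 10.2, 10.4, 23.5 and 21.3 CPM in them. The P3 to P5 count was 5 or 6 without P3 replicate 2, 3 or 4 or P5 replicate 3 or 4, and 26 without P5 replicate 2. The log2 fold change between P3 and P5 had a rho of 0.44 with GC content across 13425 genes and 0.41 across the members. After correction for GC 8 members rose and 0 fell (1530 and 1779 of all 13442 genes). With exonic length the log2 fold change had a rho of -0.31 across the members and -0.29 across all genes from P3 to P5. These values were -0.34 and -0.29 from P3 to P7 and -0.29 and -0.19 from P1 to P7. The part of transcript length in the passage results was not tested. From P5 to P7, 3 members rose and 4 fell (7.67% and 9.1% of all genes, 16.8% in all). Among them were Mrps12 (0.46) and Mrpl53 (0.34), which rose, and Mrps35 (-0.48) and Mrps27 (-0.41), which fell. The rises depended on single libraries. Without P5 replicate 1 or 2, 0 members rose and 2 fell (684 and 898 of 13617 genes, 816 and 1010 of 13611). Without P7 replicate 2, 0 rose and 3 fell (830 and 990 of 13612 genes). Without P7 replicate 1, 0 rose and 7 fell (922 and 1161 of 13609 genes).

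From P3 to P7, 21 members rose and 8 fell (24.8% and 26.5% of all genes, 51.3% in all), with a median of 0.16, of 0.09 after correction for GC and of 0.06 without P7 replicate 1, when 15 rose and 13 fell (3106 and 3434 of all 13609 genes). Mrpl14 had a log2 fold change of 1.06 ± 0.24 (SE, adjusted p = 0.00131) and was the 1 member over 2-fold, a size that 11.9% of all genes reached. No member reached it without P7 replicate 1 or P3 replicate 4, and 2 did without P7 replicate 4 or P3 replicate 1. Mrpl57 (0.92), Mrps21 (0.92), Mrps12 (0.79) and Mrpl34 (0.71) followed, and Mrpl47 (-0.60), Mrpl3 (-0.56) and Mrps22 (-0.50) fell. Mrpl3 differed in its course from Mrps5. It was at 47.1, 51.6, 52.2 and 50.5 CPM at P3, above every P1 library in 3 of 4 libraries, and fell afterwards, whereas Mrps5 was already at 24.4, 15.98, 19.3 and 16.5 CPM at P3. The passage comparisons share libraries, so these values are not independent of each other.

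The second question was what the genes do when E2f4 is raised. With E2f4 overexpression 52 members rose and 1 fell, while 28.9% of all genes tested rose and 28.2% fell (57.2% in all). The median log2 fold change was 0.52 for the members and 0.01 for all genes. In the small subunit 17 of 26 genes rose, and in the large subunit 34 of 51 rose and 1 fell. All 32 genes of proteins found only in mitochondria had a positive log2 fold change and 22 of them rose, a share near that of all members (52 of 78, 66.7%). Beyond 2-fold there were 8 members, a size that 18.1% of all genes reached, and 2 after correction for GC, 5 without the first and 11 without the second control library. Without the 12 members that share exonic bases with another gene, 44 rose and 1 fell of 66.

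Mrpl12 was at 64.9 and 68.4 CPM with overexpression and 29.03 and 26.9 CPM in the control, a log2 fold change of 1.25 ± 0.12 (SE, adjusted p = 2.06e-05). Mrps26, of the small subunit, was at 32.2 and 32.4 CPM against 13.9 and 13.8 CPM (log2 fold change 1.22 ± 0.13 SE, adjusted p = 3.79e-05). Mrps11, which encodes uS11m of the small subunit platform, was at 15.9 and 16.1 CPM against 6.90 and 6.86 CPM (log2 fold change 1.22 ± 0.15 SE, adjusted p = 9.17e-05). For these 3 genes the libraries of a group lay close together and far from the other group. Mrps5 was at 22.5 and 22.03 CPM against 7.81 and 11.6 CPM (log2 fold change 1.21 ± 0.18 SE, adjusted p = 0.000266), and Mrps12, which was already higher at P7, was at 28.5 and 35.1 CPM against 12.3 and 15.2 CPM (1.21). Their control libraries were further apart, but neither reached the overexpression libraries. The 1 member that fell was Mrpl1, at 11.7 and 11.1 CPM against 20.7 and 17.1 CPM (log2 fold change -0.73 ± 0.15 SE, adjusted p = 0.00192). Of the paralogues of bacterial S18, Mrps18a (0.55) and Mrps18b (0.53) rose, and Mrps18c was at 0.03 ± 0.15 (SE, adjusted p = 0.877). Mrps30 (0.53) and Mrps36 (0.62), the member outside the ribosome, also rose.

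The upstream sequences of the genes that led this comparison are given because the factor that was raised is an E2F, whose binding motif was searched in them. They are from the RefSeq promoter table of GRCm38.p6 (the assembly of mm10), 5′ to 3′ in the direction of the gene and ending at the base before the annotated start, and capitals mark letters that match a searched motif on either strand. For Mrpl12 this is chr11:120484387-120484636 (plus strand), with 1 E2F match that begins 103 bases before the start and 1 NRF1 match that begins 80 bases before it. For Mrps12 it is chr7:28741822-28741967 (minus strand), the gap of 146 bases to the divergent gene Sars2, with 1 E2F and 3 CCAAT matches. Mrps11 and Mrpl46 are divergent neighbours, both members, and share a gap of 41 bases at chr7:78783090-78783130 (shown on the plus strand, that of Mrps11), which holds no match. For Mrps26 it is chr2:130563507-130563756 (plus strand), with 1 ETS and 1 CCAAT match, and for Mrps5 chr2:127587176-127587425 (plus strand), with no match. Of the 4 highest members, Mrpl12, Mrps26, Mrps11 and Mrps5, only Mrpl12 has an E2F match in the window shown. Mrps12 was added to these 4, and its E2F match begins 134 bases before the start, at the Sars2 end of the gap. The share over all genes was not counted for these windows.
Mrpl12: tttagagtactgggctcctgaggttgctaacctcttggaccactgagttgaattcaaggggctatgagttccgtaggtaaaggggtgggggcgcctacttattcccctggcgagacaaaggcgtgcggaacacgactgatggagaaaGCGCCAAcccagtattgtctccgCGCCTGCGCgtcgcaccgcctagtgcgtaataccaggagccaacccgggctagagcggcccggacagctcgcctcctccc
Mrps12: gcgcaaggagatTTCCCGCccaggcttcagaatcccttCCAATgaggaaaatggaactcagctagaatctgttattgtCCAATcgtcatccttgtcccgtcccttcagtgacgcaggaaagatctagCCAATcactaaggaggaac
Mrps11 and Mrpl46: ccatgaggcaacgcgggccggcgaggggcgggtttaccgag
Mrps26: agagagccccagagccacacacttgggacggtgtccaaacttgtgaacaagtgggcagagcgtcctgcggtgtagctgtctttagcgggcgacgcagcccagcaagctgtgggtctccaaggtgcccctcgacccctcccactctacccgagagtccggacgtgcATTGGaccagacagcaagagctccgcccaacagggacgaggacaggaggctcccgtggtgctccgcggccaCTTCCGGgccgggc
Mrps5: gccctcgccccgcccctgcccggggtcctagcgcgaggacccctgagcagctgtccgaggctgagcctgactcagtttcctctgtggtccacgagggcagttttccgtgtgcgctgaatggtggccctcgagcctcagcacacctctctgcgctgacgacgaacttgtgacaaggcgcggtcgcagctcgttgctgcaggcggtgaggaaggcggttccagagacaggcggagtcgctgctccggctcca
Mrpl46, on the other side of that gap, was at 13.7 and 13.2 CPM with overexpression and 8.78 and 6.86 CPM in the control (log2 fold change 0.78 ± 0.17 SE, adjusted p = 0.00254).

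Over all promoters of the table, motif matches of the members were counted in the 250 bases before and 50 bases after the start, on both strands. The table held 75 promoters of 69 members, and the other 9 members have no entry. An E2F match, searched as TTGGCGC, with the variants TTCCCGC and TTGCCGC and in addition TTCGCGC, was in 16 member promoters (21.3%), compared with 9.57% of all 32851 promoters and 16.1% of the promoters of genes tested over the passages. The ETS motif CCGGAAG, which GABP binds, was in 26 (34.7%; 8.86% of all and 16.5% of tested genes), and the YY1 motif AAGATGGC was in 12 (16%; 2.75% and 4.18%). The NRF1 motif GCGCANGCG was in 16 (21.3%; 6.25% and 12.6%), and 7 of the promoters (9.33%; 1.75% and 3.44%) held its stricter form GCGCATGCG. The E-box CACGTG was in 7 (9.33%; 7.15% and 9.8%) and CCAAT of NFY in 30 (40%; 37.4% and 37.5%). Counted by member these 2 motifs were in 5 and 27 of 69, since overlapping promoters of 1 gene, such as the 3 of Mrpl2, count separately. Of the 16 members with an E2F match 10 rose with E2f4 overexpression (median log2 fold change 0.40), and of the 53 without one 34 rose and 1 fell (median 0.53). A match is only a run of letters in this window.

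The overexpression libraries differed from their controls in a way that followed the base composition of transcripts. Across 13178 genes the log2 fold change had a Spearman's rho of 0.56 with exonic GC content, and across the 78 members it was 0.51. The points share 4 libraries, and genes are not independent replicates. The median GC content of the members was 51.5%. Among the 39 members below it the median log2 fold change was 0.38, against -0.22 for all genes on the same side of it within the GC range of the members. Among the 39 others it was 0.65, against 0.36. Of the 52 members that rose, 21 were low and 31 high in GC, and 70 of the 78 members lay above the median of all genes in their bin of 3 percentage points of GC. After a correction for GC content in each library 46 members rose and 2 fell, with a median of 0.37, and 36 of the 53 calls were among them. With the same correction 3348 of all 13199 genes rose and 3501 fell. The correction lowered Mrpl12 to 0.73, Mrps26 to 0.59, Mrps11 to 0.85, Mrps12 to 0.84 and Mrps5 to 0.99, all still past the test, and took Mrpl1 to 0.00 (adjusted p = 0.99). The share of counts in rows without a gene also moved with the groups, at 7.5 to 7.89% with overexpression and 12.3 to 12.9% in the control. Its part in the result was not tested.

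**Figure D4:**
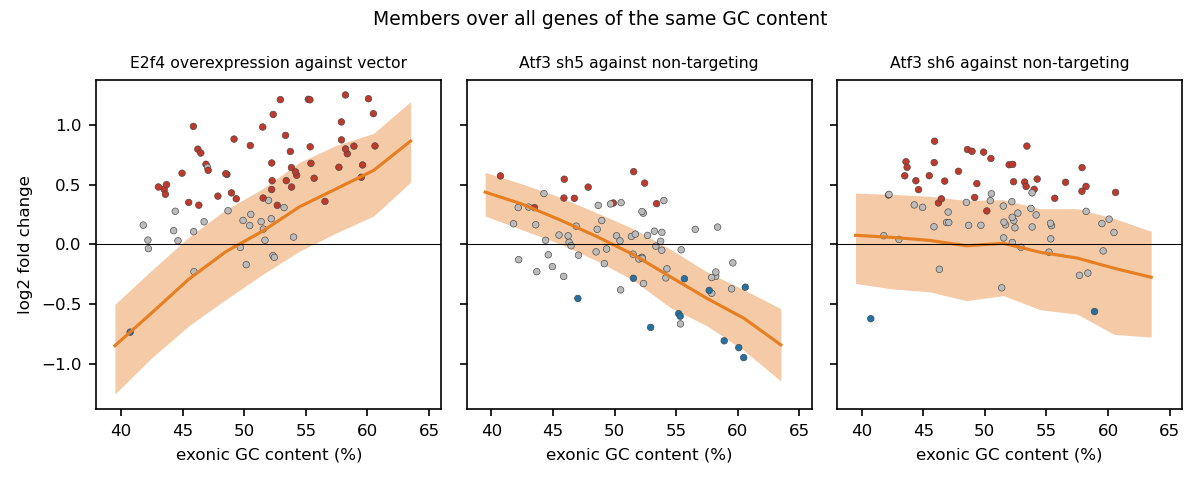
Log2 fold change of the 78 Mrp genes (points) against the GC content of their exons in percent, with the median of all genes per bin of GC as an orange line and its quartiles as a band, for E2f4 overexpression and the Atf3 hairpins. The line rises with GC for E2f4 overexpression and falls for Atf3 sh5, and 70 of 78 members lie above it for E2f4 overexpression and for Atf3 sh6, compared with 41 for sh5.

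Few members changed when E2f4 was knocked down. With sh1 5 members rose and 0 fell (edgeR), where 10% of all genes rose and 7.79% fell (17.8% in all), and 9 were higher and 4 lower at an unadjusted p under 0.05. DESeq2 called 2 higher and 0 lower, and edgeR called 3 without sh1 replicate 2 or 3 and 1 without any single control library. Mrps21 encodes bS21m of the small subunit. It was at 17.2, 20.5 and 36.98 CPM with sh1 and 13.2, 14.8 and 13.9 CPM in the control (log2 fold change 0.83 ± 0.22 SE, adjusted p = 0.0172). Mrpl52 was at 31.8, 35.7 and 64.9 against 24.5, 28.7 and 29.03 CPM (log2 fold change 0.68 ± 0.20 SE, adjusted p = 0.0294), Mrpl33 at 37.7, 42.5 and 51.8 against 24.96, 29.9 and 29.7 CPM (log2 fold change 0.64 ± 0.12 SE, adjusted p = 0.00215) and Mrpl14 at 15.8, 23.98 and 28.3 against 15.3, 15.6 and 15.4 CPM (log2 fold change 0.55 ± 0.17 SE, adjusted p = 0.0379). In all 4 the third sh1 library was the highest, and the groups do not overlap. Mrpl18 (0.29, adjusted p = 0.0484) also rose, and Mrpl12 was at -0.08 ± 0.10 (SE, adjusted p = 0.631). The log2 fold change of the members had a Spearman's rho of -0.53 with exonic length (78 genes), compared with -0.15 over 12292 genes. The part of transcript length in this result was not tested. Of the 52 members that rose with overexpression 0 fell with sh1 (12.9% of all genes that rose with overexpression did) and 4 rose (7.69%, all genes 7.84%). These 2 experiments share no libraries.

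The members that changed over the passages could be set beside E2f4 overexpression in the same way, since no library is shared. Of the 12 members that fell from P1 to P7 7 rose with overexpression (58.3%; 38.7% of all genes that fell), and of the 19 that rose 11 did (57.9%; 21.7% of all genes that rose). The former were Mrpl12, Mrpl18, Mrpl19, Mrpl40, Mrpl46, Mrps27 and Mrps5. Of all 78 members 66.7% rose with overexpression, compared with 29.3% of all genes tested in both experiments. E2f4 itself fell from P1 to P7 by 0.27 on the log2 scale (adjusted p = 0.0122).

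With the Tead1 hairpins few members changed, and by little. With sh3 10 members rose and 7 fell (17.6% and 17.7% of all genes, 35.4% in all), with sh4 5 rose and 10 fell (14.4% and 14.7%, 29.1% in all), and the medians were -0.01 and -0.02. Mrpl17, a large subunit protein next to the peptide exit, was at 53.3, 50.7 and 49.5 CPM with sh3, 54.1, 58.2 and 49.5 CPM with sh4 and 65.9, 70.5 and 66.3 CPM in the non-targeting libraries (-0.40 and -0.33). Mrpl42 was at 29.9, 23.5 and 25.3 CPM, 28.3, 26.4 and 25.9 CPM and 20.6, 21.4 and 19.96 CPM in the same order (0.34 and 0.38). Neither hairpin group overlapped the control for these genes. Other named changes were Mrpl53 (-0.36), Mrpl57 (-0.27), Mrpl19 (-0.26), Mrps9 (0.32), Mrpl23 (0.30) and Mrpl39 (0.28) with sh3, and Mrps18b (-0.35), Mrps16 (-0.32), Mrpl57 (-0.31), Mrpl39 (0.31), Mrpl14 (0.24) and Mrpl33 (0.24) with sh4. Between the hairpins 1 member differed, which was lower with sh4 (3.34% of all genes were higher and 4.03% lower, 7.37% in all), Mrps33, at 11.8, 11.4 and 11.9 CPM with sh4, 13.3, 15.9 and 15.4 CPM with sh3 and 14.3, 13.3 and 13.7 CPM in the controls (log2 fold change -0.35 ± 0.10 SE, adjusted p = 0.0289). Without the third control library 10 members passed with sh3 and 8 with sh4, and without sh3 replicate 3 or any single sh4 library 0 passed between the hairpins.

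The Atf3 hairpins differed from each other. With sh5 10 members rose and 11 fell (17.7% and 18.1% of all genes, 35.9% in all), with a median of -0.01, and 12 passed without control replicate 1, 7 without control replicate 2 or 3 and 30 (13 higher and 17 lower) without sh5 replicate 3. Without that library 2849 of all 13513 genes were higher and 2747 lower. With sh6 34 rose and 2 fell, where 23.8% of all genes rose and 26% fell (49.8% in all), and the median was 0.34 for the members and -0.02 for all genes. In sh6 the large subunit had 26 genes that rose and 2 that fell (median 0.38), and the small subunit had 8 that rose (median 0.22). Tested directly, 40 members were higher and 3 lower in sh6 than in sh5 (25.9% and 26.6% of all genes, 52.6% in all), and 53 were higher and 2 lower without sh5 replicate 3 (3985 and 4085 of all 13513 genes).

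Mrpl33 was at 61.1, 68.2 and 69.3 CPM with sh6, 52.3, 48.5 and 58.5 CPM with sh5 and 36.2, 32.98 and 39.8 CPM in the controls. It rose with sh6 (log2 fold change 0.86 ± 0.10 SE, adjusted p = 5.99e-05) and with sh5 (0.55). Mrps18b, whose product mS40 is 1 of the S18 paralogues, was at 55.1, 58.9 and 60.1 CPM, 42.2, 44.8 and 37.6 CPM and 35.8, 30.1 and 32.3 CPM in the same order (log2 fold change 0.82 ± 0.10 SE, adjusted p = 6.01e-05, and 0.34 with sh5). Both genes were above the controls with each hairpin. Mrpl16 (0.80), Mrpl49 (0.78), Mrps30 (0.67), Mrps18c (0.46) and Mrps18a (0.39) also rose with sh6. Mrpl1 went the other way between the hairpins, at 8.89, 10.4 and 9.59 CPM with sh6, 21.2, 19.5 and 25.5 CPM with sh5 and 16.7, 13.2 and 14.6 CPM in the controls (-0.62 and 0.57). Mrpl14 fell with both (-0.56 and -0.81). With sh5 the lowest fold changes besides Mrpl14 were those of Mrpl54 (log2 fold change -0.95 ± 0.18 SE, adjusted p = 0.00363), Mrps26 (-0.86) and Mrps5 (-0.69), and the highest besides Mrpl1 and Mrpl33 were those of Mrps35 (0.61) and Mrps6 (0.51). Without sh5 replicate 3 these were -0.79 for Mrpl54, -0.66 for Mrps26, -0.47 for Mrps5, 0.37 for Mrps35 and 0.38 for Mrps6, all still past the test.

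GC content moved with sh5, with a rho of -0.65 across 13325 genes and -0.50 across the members, and much less with sh6 (-0.12 and -0.22). Of the members that passed with sh5, the low-GC genes had 7 that rose and 2 that fell, and the high-GC genes had 3 that rose and 9 that fell. After correction for GC 11 rose and 3 fell with sh5 (1686 and 1685 of all 13345 genes), with 8 of the 21 calls kept. Without sh5 replicate 3 rho was -0.54 across all genes and -0.41 across the members. With sh6 40 rose and 4 fell after the correction for GC (3867 and 3865 of all 13345 genes), with 35 of the 36 calls kept. Mrps18a, which fell with sh5 (-0.29), was at 0.05 after it (adjusted p = 0.75) and, without sh5 replicate 3, at -0.21 and no longer past the test. Other values also moved with sh6. The summed fibroblast markers were at 17113 to 17964 CPM with sh6, 25469 to 37750 CPM with sh5 and 39158 to 40863 CPM in the controls, and 7 of 10 fell with sh6. Their sum was also lower without overlap with E2f4 sh1, at 27153 to 30478 CPM against 35598 to 36689 CPM. With Tead1 sh3 and sh4 it was at 31225 to 32081 and 29619 to 30617 CPM against 32288 to 33220 CPM. With E2f4 overexpression the groups overlapped. E2f4 was higher with sh6 (log2 fold change 0.67, adjusted p = 0.000311) and was at 0.01 with sh5. The part of either in the change of the Mrp genes was not tested. In bulk libraries a change in the mixture of cells and a change in RNA per cell cannot be told apart.

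Genes that act with the mitochondrial ribosome were read beside it. Over all genes 28.9% rose and 28.2% fell with E2f4 overexpression, 23.8% and 26% with Atf3 sh6, and 30.5% and 31.9% from P1 to P7, and the counts of these short lists are to be read against those shares. Of the 5 subunit genes without an Mrp symbol 2 rose with E2f4 overexpression, Gadd45gip1 (log2 fold change 1.58) and Aurkaip1 (0.53), and 4 rose with Atf3 sh6. Of the 22 genes for ribosome assembly and rRNA modification 9 rose and 2 fell with E2f4 overexpression (median 0.37), 6 rose and 2 fell with Atf3 sh6, and 4 rose and 4 fell from P1 to P7. The 15 mitochondrial translation factors were mixed, with 4 that rose and 2 that fell with E2f4 overexpression (median -0.06). Those that fell were Mtif2 (-1.20), the initiation factor, and Guf1 (-1.34), a back-translocase. Of the 17 mitochondrial aminoacyl-tRNA synthetases 3 rose and 2 fell with E2f4 overexpression and 4 rose and 1 fell with Atf3 sh6. Among 4 genes of mitochondrial transcription 2 rose and 1 fell from P1 to P7. Of 8 known regulators of mitochondrial genes that were tested, 4 fell from P1 to P7, which were Ppargc1b (-2.54), Pprc1 (-0.84), Nrf1 (-0.54) and Myc (-0.46), and Esrra rose (0.77). With E2f4 overexpression Esrra (1.10), Myc (0.61), Nrf1 (0.58) and Pprc1 (0.47) rose, and Gabpa fell by 0.49 on the log2 scale.

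The genes of the cytosolic ribosome, which number 85 in the files, served as the nearest comparison. From P1 to P7 38 of 81 tested rose and 1 fell (median 0.31), and with E2f4 overexpression 58 of 80 rose and 2 fell (median 0.51). With Atf3 sh6 3 of 79 rose and 15 fell (median -0.11), beside 34 and 2 of the 78 Mrp genes. The shares of all genes were 30.5% and 31.9% over the passages, 28.9% and 28.2% with E2f4 overexpression and 23.8% and 26% with sh6. With sh5 1 rose and 28 fell (17.7% and 18.1% of all genes), and with Tead1 sh4 1 rose and 39 fell (14.4% and 14.7%). With E2f4 sh1 18 of 78 rose and 3 fell (10% and 7.79%). Genes of the cytosolic ribosome have many near-identical copies in the genome, so their counts are less certain. No test of the difference between the 2 families was run.

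The promoters of all 78 Mrp genes had an ATAC-seq peak within 1000 bases of the start in each of the 13 samples, as did 91.4% of all genes tested. In 27 members a divergent protein-coding gene also starts within 1000 bases, so their peak cannot be assigned to the Mrp gene alone. The strength of a peak was expressed as the percentile of its -log10 p among the peaks of its own sample, since the lists hold no read counts and their depth is unknown. The median member was at percentiles of 86.9 to 90.9 over the samples, and the median of all genes was at 86.3 to 89.8. In 34 members the 4 P1 and 3 P7 samples did not overlap, with 11 higher and 23 lower at P7. Over all genes 44.9% did not overlap, with 13.1% higher and 31.9% lower. With 4 samples against 3 the two-sided exact permutation test cannot go below p = 0.0571, so no single promoter could pass.

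The largest fall was that of Mrpl3, from percentiles of 58.7 to 71.6 at P1 to 27.3 to 45.6 at P7, with means of 67.9, 51.0, 44.8 and 34.1 at P1, P3, P5 and P7 (exact permutation p = 0.0571). Its fold enrichment, which MACS2 gives over the local background of the sample, went from between 6.20 and 8.31 to between 3.70 and 5.64, so both measures were lower at P7 without overlap, as was its RNA. The upstream sequence of Mrpl3 is printed for this reason (GRCm38.p6, chr9:105053018-105053267, plus strand), with 1 ETS and 2 CCAAT matches in capitals and the ETS match 19 bases before the start.
Mrpl3: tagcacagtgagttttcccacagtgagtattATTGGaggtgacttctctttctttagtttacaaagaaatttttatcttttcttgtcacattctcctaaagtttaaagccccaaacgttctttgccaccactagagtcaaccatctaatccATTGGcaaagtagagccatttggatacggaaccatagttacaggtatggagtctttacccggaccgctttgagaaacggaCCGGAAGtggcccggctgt
Mrpl15 fell from percentiles of 86.8 to 89.5 to percentiles of 63.7 to 70.6, and Mrps6 from 82.2 to 85.3 to 63.0 to 70.1. Mrpl45 (64.4 to 78.4 at P1, 80.6 to 85.8 at P7) and Mrpl11 (87.5 to 90.5 and 96.6 to 97.2) went the other way, and were also higher in fold enrichment. By fold enrichment 30 members were higher and 5 lower at P7 without overlap, beside 32.3% and 6.56% of all genes. The divergent neighbours Mrps11 and Mrpl46 had identical values and are both counted among the 30. Of the 11 members higher by percentile 10 were also higher by fold enrichment, and 26 members overlapped in both measures. Of the 23 lower by percentile 5 were lower, 16 overlapped and 2, Mrps33 and Mrps35, were higher by fold enrichment. The 5 that were lower in both were Mrpl15, Mrpl3, Mrps12, Mrps5 and Mrps6.

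**Figure D5:**
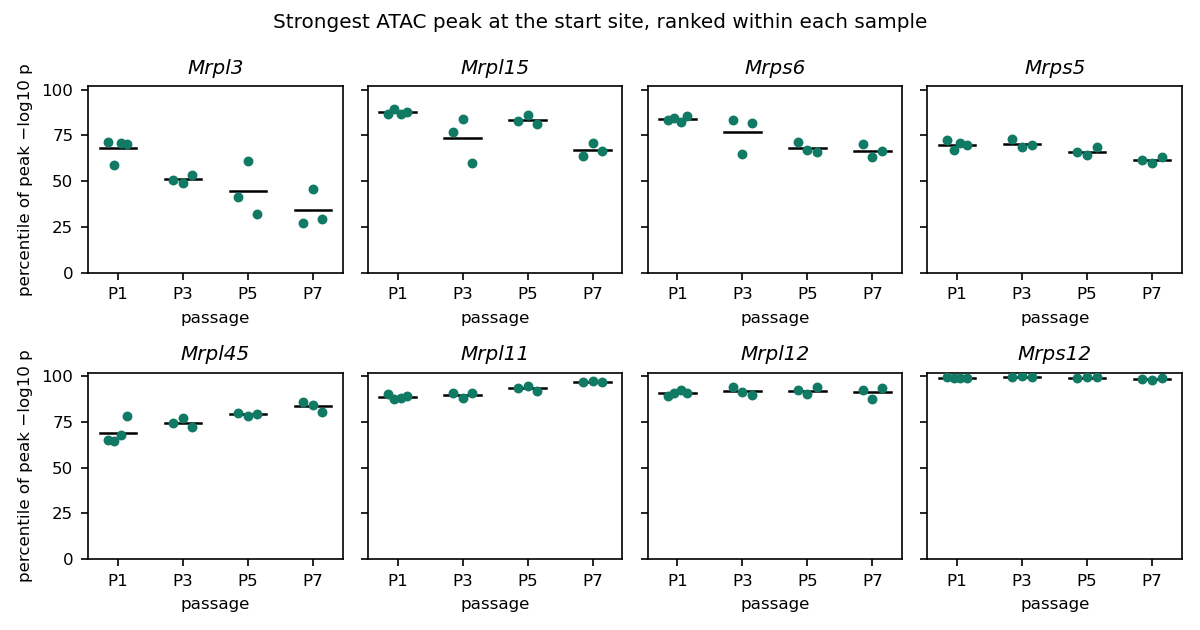
Percentile of the strongest promoter peak in each of the 13 ATAC-seq samples (points) by passage for 8 Mrp genes, with the mean of each passage as a line. Mrpl3 falls from a mean of 67.9 at P1 to 34.1 at P7, Mrpl15 and Mrps6 fall less, Mrpl45 and Mrpl11 rise, and Mrps12 stays near the top of the scale.

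The promoter values, as percentiles, were set beside the RNA of the same passages. Of the 12 members whose RNA fell from P1 to P7 5 had a promoter that was lower without overlap (41.7%; 34.8% of all genes whose RNA fell), which were Mrpl1, Mrpl3, Mrpl40, Mrps22 and Mrps5, and 0 had a higher one (all genes 11.6%). Of the 19 members whose RNA rose 4 had a lower promoter (21.1%; all genes 28.2%) and 1, Mrpl33, a higher one (5.26%; all genes 15.8%). By fold enrichment Mrpl3, Mrps5 and Mrps12 were also lower and Mrpl33 was also higher. Mrpl1, Mrpl40, Mrps22, Mrpl23 and Mrpl57 overlapped by that measure, and Mrps33 was higher. Among those higher by fold enrichment alone were Mrpl12, Mrpl46 and Mrps27, whose RNA fell, and Mrpl10, Mrpl36, Mrpl55, Mrps14 and Mrps34, whose RNA rose. Mrps12 was among those with higher RNA and a weaker peak by both measures, with a mean percentile that went from 99.2 to 98.4. Of the members named here Mrpl10, Mrpl40, Mrpl46, Mrpl57, Mrps5, Mrps12, Mrps27 and Mrps34 have a divergent gene start within 1000 bases. Their peak may belong to that gene.

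The Mrp genes differed in how often they passed. Over the 13 comparisons Mrpl32, Mrpl58 and Mrps17 passed in none, and Mrpl14, Mrpl33, Mrpl34 and Mrpl57 passed in 8 each. The matching shares of all genes were not counted, so these numbers do not set the members apart. Comparisons of the same experiment share libraries, so the passes of a gene are not independent of each other.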

How the data were processed

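The files used were RNA-seq counts (44 libraries) and ATAC-seq peaks (13 samples). The deposited counts are raw and were made by the authors with Trimmomatic 0.39 for trimming, HISAT2 2.2.1 for alignment (mm10) and HTSeq 0.12.4 for unstranded counting per gene. Reads that overlap more than 1 gene are then not assigned, which bears on members with overlapping neighbours. For ATAC-seq the authors aligned reads with Bowtie2 2.3.5.1 and called peaks with MACS2 in each sample. The deposited peak columns are a -log10 p and a fold enrichment over the local background (a ratio), and the lists hold no read counts. The 5 HTSeq rows without a gene held 7.5 to 16.8% of the intervention counts and were left out. Methylation data were not analysed here.

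Each experiment was fitted alone with edgeR 4.0.16 in R 4.3.3 (filterByExpr, TMM scaling, quasi-likelihood test, all groups of the experiment in 1 fit), with Benjamini-Hochberg adjustment over all genes tested (12310 to 13442 genes). SE is the log2 fold change divided by the square root of F. The common biological coefficient of variation was 0.0456 to 0.134. Replicates differed more than counting noise, with 2.75 to 63.7 units of chi-square for each degree of freedom over 50 pairs, so no library was counted as a repeat. The script was tested on simulated counts. Genes were matched to RefSeq of GRCm38.p6 for exonic length, GC content and start sites, and the peak assigned to a gene was the strongest within 1000 bases of a start. TPM was computed from counts and exonic length. GC correction used a lowess curve (span 0.3) per library as an offset.

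The genes named in the text were the 10 highest and 10 lowest members past the test from P1 to P7, the 5 and 5 of other passage comparisons and the 4 and 4 of each intervention, with an average log2 CPM of at least 3. The 5 highest and 5 lowest by TPM, the S18 paralogues, Mrps30, Mrps36 and Mrpl12 were added. Motif sequences, promoters and single list genes were named after their values were seen. The members and lists were chosen with earlier results of these data known. The alternatives were DESeq2 1.42.0, its size factors, no filter, the replicate number as a block, GC correction, both together, only the compared groups and leaving out each library.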

Additional observations from a re-analysis of the deposited data

Results flagged for a closer look

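Over 156 sets of the 4 libraries of 1 passage (named members and the summed level), 7 had 1 library whose gap to the others took up most of the range, and chance alone gives about 1 in 20. At P1, Mrpl43 was at 5.20 CPM in replicate 3 and 6.12 to 6.30 CPM in the others. At P3, Mrpl28 was at 39.96 CPM in replicate 1 (others 29.2 to 29.97), Mrps25 at 18.2 CPM in replicate 2 (others 21.6 to 22.2) and Mrps30 at 36.4 CPM in replicate 3 (others 32.3 to 32.9). At P7, Mrpl33 was at 88.5 CPM (others 55.0 to 57.8) and Mrpl43 at 9.31 CPM (others 6.31 to 6.69) in replicate 1, and Mrpl19 was at 17.3 CPM in replicate 4 (others 20.7 to 21.4). The first P7 library also had the highest summed level, 2680 CPM.

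The hairpins against 1 target differed by the direct test. For Tead1 1 member differed between sh4 and sh3, Mrps33 (log2 difference -0.35). For Atf3 43 members differed between sh6 and sh5. Lower in sh6 were Mrpl1 (-1.20), Mrpl27 (-0.43) and Mrps6 (-0.37), and the largest differences above were those of Mrpl21 (1.10), Mrps26 (1.08), Mrpl34 (1.05) and Mrpl54 (1.05).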

How the results depend on the processing

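The counts with E2f4 overexpression (53 members), Atf3 sh6 (36), Atf3 sh6 against sh5 (43), P7 against P1 (31) and P7 against P3 (29) stayed within 1.5 times of these counts under each alternative tried. The promoter count did so too (33 to 41 beside 34, all genes 38.8 to 53.6%), but its direction did not hold. By fold enrichment 30 members were higher and 5 lower at P7, in place of 11 and 23 by percentile. With DESeq2 the count was 2 with E2f4 sh1 and 8 with Tead1 sh4. With only the compared groups it was 20 for P3 against P1 (5 higher and 15 lower), 7 for P5 against P3, 10 for Atf3 sh5 and 0 for P7 against P5, where 5 members were higher and 5 lower at an unadjusted p under 0.05 in edgeR. In that fit of P5 and P7 581 of all 12644 genes were higher and 606 lower past the adjusted threshold. With GC correction it was 8 for P5 against P3, all higher, and of the members passing with Atf3 sh5 78.6% were then higher, in place of 47.6%, and from P5 to P7 55.6% in place of 42.9%. Under GC correction Mrps18a with Atf3 sh5 turned from -0.29 to 0.047, and to 0.048 with the block added. The cause of these shifts was not tested.

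Leaving out single libraries gave 3 to 9 members for P3 against P1, 5 to 26 for P5 against P3, 2 to 10 for P7 against P5, 28 to 32 for P7 against P1 and 24 to 36 for P7 against P3. It gave 39 to 58 with E2f4 overexpression, where an arm then rests on 1 library that is assumed to vary like the other arm, 1 to 7 with E2f4 sh1, 10 to 16 with Tead1 sh3, 8 to 13 with sh4, 0 to 1 between these hairpins, 7 to 30 with Atf3 sh5, 24 to 33 with sh6 and 30 to 55 between these.

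The labels do not say that a replicate number marks a shared animal or day. The deviations of same-numbered libraries correlated at -0.377 to 0.361 over the passages (0.115 to 0.361 for number 4), at 0.233 for E2f4 overexpression with its 2 pairs, and at under 0.1 for some pair in each knockdown, so the numbers were not taken as pairs. With the replicate number as a block the counts were 9, 13, 6, 30 and 29 for P3 against P1, P5 against P3, P7 against P5, P7 against P1 and P7 against P3. They were 57 with E2f4 overexpression, 4 with E2f4 sh1, 17 and 14 with Tead1 sh3 and sh4, 1 between them, 17 and 33 with Atf3 sh5 and sh6 and 42 between them. The block with GC correction gave 12 for P3 against P1 and 13 for Atf3 sh5. Of 116 calls of named members 112 kept their side of the threshold with DESeq2, 110 with the block and 100 with GC correction.

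With 2 libraries per group for E2f4 overexpression the spread is poorly known. No member had fewer than 34 counts in a library, but the peak lists carry no depth.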
